A study of Homo sapiens with 12 samples.

Results

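The DNA replication genes examined here are 54 protein-coding genes of the replication machinery, chosen by symbol from 60708 rows of 2 gene count matrices and divided by role into 10 groups, from origin recognition to nucleotide supply. They were measured by RNA-seq in HCT116 cells, a human colon cancer line that the labels give as WT, grown in RPMI1640 medium with fetal bovine serum. Cells received oligomycin A (OA), which blocks the ATP synthase of mitochondria, or tunicamycin (TN), an inhibitor of N-linked glycosylation that causes stress in the endoplasmic reticulum, or DMSO as the solvent control. Each treatment lasted 24 h and each stressor had DMSO libraries of its own, so that 12 libraries formed 4 groups of 3 biological replicates: OA, DMSO of the OA experiment, TN, and DMSO of the TN experiment. The labels give 5 µg/ml for both stressors, whereas the methods of the study give a higher dose for OA, and the dose of OA is therefore uncertain here. All libraries came from a single cell line, and no genotype other than WT was included.

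Replication in human cells begins when the origin recognition complex, with CDC6 and CDT1, loads the MCM2-7 helicase onto origins during G1. Kinases then recruit CDC45 and GINS to form the active CMG helicase, and polymerases, the sliding clamp PCNA with its loaders, and the enzymes that join Okazaki fragments copy the DNA behind it. Most of these genes are transcribed at the passage from G1 to S phase under E2F transcription factors, so that their RNA is known as a mark of proliferating cells.

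Libraries held between 9884124 and 24983573 counts, and the 54 genes took between 16529 of these in TN replicate 2 and 214266 in replicate 2 of the DMSO libraries of OA. The lowest count of any member was 4, in TN replicate 3. The abundant non-coding RNA RN7SL1 took 6.02% to 8.11% of the counts in the 6 DMSO libraries, against 8.4%, 17.9%, and 12.5% in the OA libraries and 13.3%, 9.22%, and 10% in the TN libraries, and its part in the results was not tested. The epithelial keratins KRT8, KRT18, and KRT19 were abundant in all libraries, with DMSO means of 1936, 1322, and 1514 CPM (counts scaled to library size) in the OA experiment, while the leukocyte gene PTPRC averaged at most 0.0190 CPM in any group.

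The binding motif of E2F factors was looked for in the promoters of these genes, as these factors give the genes their common timing. Windows from 250 bases before to 50 after the transcription start were taken from a table of RefSeq promoters (GRCh38.p14) and matched for 48 of the 54 genes; those of MCM4, MCM5, GINS4, POLD3, DSCC1, and DNA2 were not analysed here. The words searched on both strands were TTTCCCGC, TTTCGCGC, TTTGCCGC, and TTTGGCGC, and matches that overlapped were counted separately. At least 1 match was present in 22 of the 48 windows (45.8%), compared with 908 of 27305 promoters in the whole table (3.33%) and 580 of 10566 promoters of genes tested in either comparison (5.49%). In 5 members (10.4%) there were 2 or more matches, which overlapped in MCM2 and in MCM6, against 0.154% of all promoters. The motif was found in 7 of 8 CMG helicase promoters with a window and in both E2F1 and E2F2, but in none of the 3 promoters of the origin firing group.

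Parts of 6 of these promoters are printed here, chosen from members described with values in every library, to show where the motif lies. Each runs 5′ to 3′ on the strand of the gene, with the motif or its reverse complement in capitals. The windows are chr16:85688938-85689025 for GINS2 (minus strand), chr1:35769949-35770023 for CLSPN (minus), chr14:49688185-49688259 for POLE2 (minus), chr18:657574-657661 for TYMS (plus), chr20:25407638-25407702 for GINS1 (plus), and chr20:5126634-5126721 for PCNA (minus). Gene positions given later are those of Gencode 44 on hg38, the build to which the authors aligned.
GINS2: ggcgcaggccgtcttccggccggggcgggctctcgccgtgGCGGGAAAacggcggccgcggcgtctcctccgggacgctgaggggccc
CLSPN: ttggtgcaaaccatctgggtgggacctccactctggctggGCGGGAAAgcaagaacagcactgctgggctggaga
POLE2: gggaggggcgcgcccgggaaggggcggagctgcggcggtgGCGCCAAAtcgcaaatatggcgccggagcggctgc
TYMS: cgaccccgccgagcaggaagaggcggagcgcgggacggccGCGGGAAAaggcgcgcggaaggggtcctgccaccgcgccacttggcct
GINS1: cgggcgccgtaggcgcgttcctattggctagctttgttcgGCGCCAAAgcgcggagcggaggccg
PCNA: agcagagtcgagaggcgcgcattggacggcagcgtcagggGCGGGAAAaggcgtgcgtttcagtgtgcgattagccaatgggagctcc
GINS2, CLSPN, TYMS, and PCNA carry the word GCGGGAAA, the reverse complement of TTTCCCGC, whereas POLE2 and GINS1 carry GCGCCAAA, the reverse complement of TTTGGCGC. The first base of the capitals lies 5 bases before the start in CLSPN and POLE2, 31 before it in GINS2, 39 before it in TYMS, 59 before it in PCNA, and 5 after it in GINS1. Over all members, matches were most frequent in the 25 bases just before the start, where 18.8% of member promoters and 0.337% of all promoters had a match. A match describes the letters of the window and does not show that a factor was bound in these cells.

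**Figure D1:**
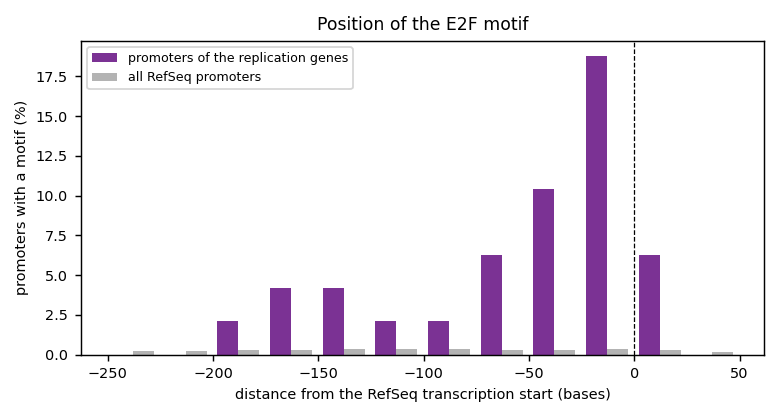
Share of promoters (%) with a match to the E2F motif in each bin of 25 bases, by distance from the RefSeq transcription start in bases, for the 48 replication gene promoters (purple) and all 27305 promoters (grey). The purple bars reach 18.8% just before the start, where the grey bar is 0.337%.

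Whether the replication genes changed together under mitochondrial stress was addressed by comparing OA with its DMSO libraries. All 54 genes had a lower mean with OA, with a median log2 fold change of -1.64 that ranged from -2.58 for MCM4 to -0.29 for CDC6, against a median of -0.02 over the 14681 genes tested. Of the 54, 34 fell (63%; edgeR's quasi-likelihood test at an adjusted p threshold of 0.05), compared with 1.72% of all tested genes called lower, and no member rose. In 51 of 54 members every OA library lay below every DMSO library, a pattern seen in 15.5% of all tested genes, and the 3 that overlapped were CDC6, POLD2, and RFC1. Summed over the members, the level was 7336, 8467, and 7499 CPM in the DMSO libraries and 2238, 2358, and 3176 CPM with OA. In bulk RNA, fewer cells in S phase and less replication RNA per cell cannot be told apart. The count of calls changed when a library was left out, and the cause was not tested: it was 0 of 54 without DMSO replicate 1, 2, or 3 (edgeR, where 47, 46, and 48 members had an unadjusted p under 0.05 and where 5, 3, and 3 of all genes were called), 8 without OA replicate 3 (0.155% of all genes called lower), 37 without OA replicate 1 (2.88%), and 39 without OA replicate 2 (2.37%). No gene at all was called lower without a DMSO library, although 2352, 2895, and 2152 genes had an unadjusted p under 0.05. In each of these fits all 54 members remained lower with OA, and DESeq2 on all 6 libraries called 46, against 5.31% of all genes called lower. A fit with the replicate number as a block called 51, against 15% of all genes, but the OA numbers were not taken as pairs. The members not called in that fit were ORC2, CDC6, and POLD2 (edgeR adjusted p = 0.183, 0.225, and 0.0569). Values of this OA block fit are not given gene by gene below.

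The same question for stress of the endoplasmic reticulum gave a similar picture. All 54 genes had a lower mean with TN, with a median log2 fold change of -1.97, from -3.19 for DSCC1 to -0.32 for ORC2, against -0.03 over 14432 tested genes. A total of 38 members fell (70.4%, edgeR), compared with 3.34% of all genes called lower. With the replicate number as a block, which paired TN and DMSO libraries of the same number, 53 fell, against 15.3% of all genes, and the exception was ORC2 (adjusted p = 0.152 in edgeR with the block). Every TN library lay below every DMSO library in 49 members, where 16.8% of all genes did so, and ORC2, CDT1, POLD2, RFC1, and CHTF18 overlapped. The summed level was 8301, 6692, and 6890 CPM with DMSO and 2723, 1524, and 1703 CPM with TN. Without the block, the number of members called was 24 without DMSO replicate 2 (0.563% of all genes called lower), 21 without DMSO replicate 3 (0.484%), 24 without TN replicate 2 (0.815%), and 24 without TN replicate 3 (0.803%), compared with 29 without DMSO replicate 1 (1.46%) and 52 without TN replicate 1 (8.54%), and all 54 stayed lower in each.

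**Figure D2:**
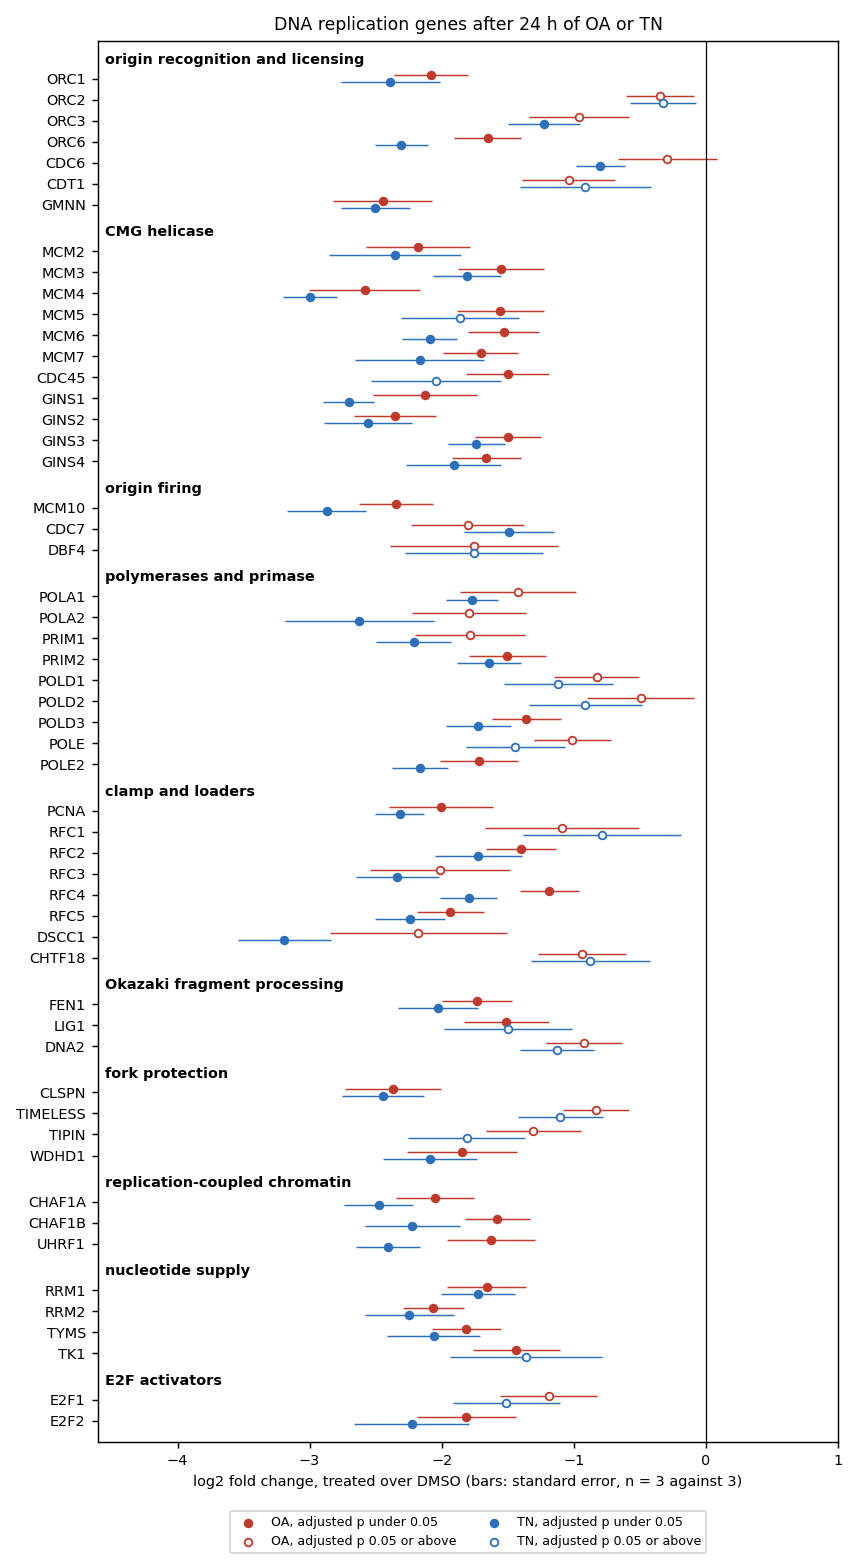
Log2 fold change of each of the 54 genes with OA (red) and TN (blue) over its own DMSO libraries, grouped by role, with bars for the standard error (3 against 3 libraries). Filled points have an edgeR adjusted p under 0.05; all points lie below 0, from -2.58 to -0.29 with OA and from -3.19 to -0.32 with TN.

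The treated libraries were not equally low. Set against the DMSO mean, the median member stood at -1.65, -2.00, and -1.28 on the log2 scale in OA replicates 1, 2, and 3, and at -1.53, -2.21, and -2.05 in TN replicates 1, 2, and 3. Exon GC content of the members ran from 37.7% to 65.1%, and it moved with the differences among replicates. Across the 54 genes, which share their libraries, the correlation of GC with the deviation from the group mean was -0.736, 0.521, and 0.27 in the OA libraries and 0.776, -0.692, and -0.728 in the TN libraries, whereas with the mean log2 fold change it was 0.212 for OA and 0.207 for TN. With an offset for GC content, 49 members were called lower with OA, against 7.57% of all genes, and 51 with TN, against 10.5%. The offset moved the log2 fold change by more than 1.5 times for DNA2, for ORC2 (to 0.0139 with OA and -0.10 with TN), and, with OA alone, for ORC3 (to -0.62) and CDC6 (to -0.16).

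**Figure D3:**
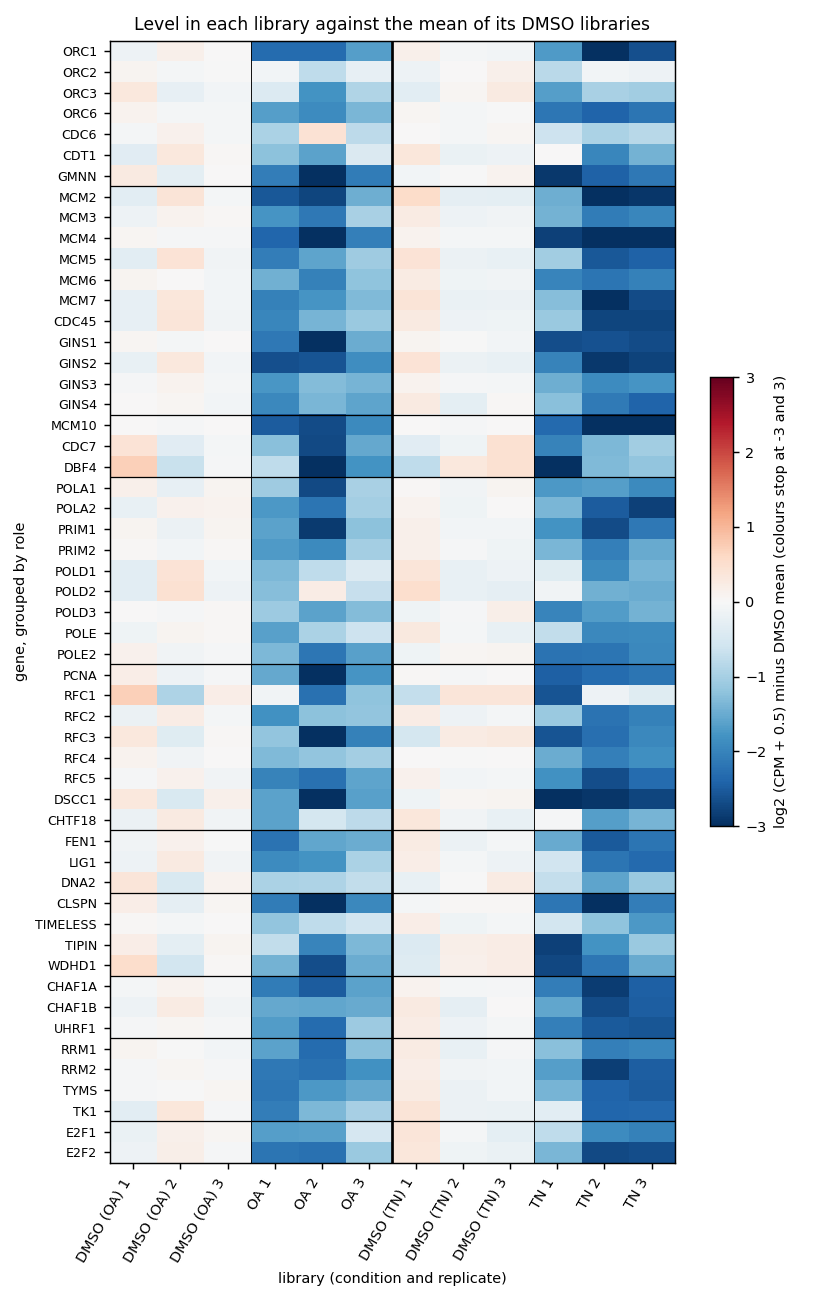
Heat map of the level of each gene (rows, grouped by role) in each of the 12 libraries (columns), as log2 of CPM plus 0.5 minus the mean of the DMSO libraries of the same experiment, with colours that stop at -3 and 3. The OA and TN columns are blue for nearly all genes, and the median gene is lowest in OA replicate 2 (-2.00) and TN replicate 2 (-2.21).

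In origin recognition and licensing, 3 of 7 genes fell with OA (ORC1, ORC6, and GMNN) and 5 of 7 with TN, with group medians of -1.04 and -1.23. These medians were the smallest of the groups in both comparisons. ORC1, the largest subunit of the origin recognition complex, stood at 90.6, 112, and 102 CPM with DMSO and 20.1, 19.96, and 32.1 CPM with OA (log2 fold change -2.08 ± 0.28, edgeR adjusted p = 0.0166; the error here and below is the standard error). With TN as the stressor it stood at 99.1, 86.1, and 84.2 CPM with DMSO and 27.3, 10.1, and 14.1 CPM with TN (-2.39 ± 0.38, edgeR adjusted p = 0.013). The treated and control libraries of ORC1 lay far apart in both experiments, with the lowest level in TN replicate 2. ORC6, the smallest subunit, read 52.2, 46.2, and 46.7 CPM with DMSO and 15.0, 12.7, and 18.5 CPM with OA (-1.65 ± 0.26, edgeR adjusted p = 0.0219). Its TN experiment gave 55.1, 51.3, and 53.0 CPM with DMSO and 11.48, 9.59, and 11.2 CPM with TN (-2.30 ± 0.20, edgeR adjusted p = 0.00301), and the TN libraries were close to each other. For ORC6, 37.8% of the transcript lies in sequence repeated in other genes, so that its level is less certain.

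GMNN encodes geminin, which binds CDT1 and keeps origins from being licensed again after S phase has begun. Its level was 61.1, 40.9, and 50.9 CPM with DMSO and 11.6, 4.99, and 11.4 CPM with OA (-2.45 ± 0.38, edgeR adjusted p = 0.0219), and in the TN experiment 58.5, 62.0, and 66.5 CPM with DMSO and 7.90, 11.2, and 13.7 CPM with TN (-2.50 ± 0.26, edgeR adjusted p = 0.00448). GMNN had the largest fall of the group under both stressors, and none of its treated libraries came near a control library. CDC6 and CDT1, which load the helicase, and the subunit ORC2 are also given with all values, and were chosen after these were seen. CDC6 was at 197, 225, and 200.04 CPM with DMSO and 107, 281, and 121 CPM with OA (-0.29 ± 0.37, edgeR adjusted p = 0.669), with OA replicate 2 above all DMSO libraries and replicates 1 and 3 below them. Leaving out OA replicate 2 moved CDC6 to -0.87 and past the threshold (edgeR adjusted p = 0.0454), whereas it was -0.07 without OA replicate 1 and -0.11 without OA replicate 3. With TN, CDC6 fell from 206, 196, and 212 to 133, 106, and 115 CPM (-0.80 ± 0.19, edgeR adjusted p = 0.0473).

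CDT1 stood at 58.5, 91.4, and 75.3 CPM with DMSO and 31.4, 24.0, and 54.1 CPM with OA (-1.04 ± 0.35, edgeR adjusted p = 0.125). In the TN experiment its values of 75.1, 51.6, and 53.3 CPM with DMSO and 59.4, 14.8, and 21.7 CPM with TN overlapped through TN replicate 1 (log2 fold change -0.91 ± 0.50, edgeR adjusted p = 0.313, and 0.0165 with the replicate block). The log2 fold change of CDT1 with TN ran from -1.68 to -0.57 with a library left out. ORC2 read 56.2, 50.7, and 52.9 CPM with DMSO and 50, 31.0, and 44.6 CPM with OA (-0.35 ± 0.26, edgeR adjusted p = 0.452), and 55.5, 62.5, and 68.3 CPM with DMSO and 35.1, 58.2, and 55.4 CPM with TN in the TN experiment (-0.32 ± 0.25, edgeR adjusted p = 0.479). ORC2 had the smallest log2 fold change of all members with TN and, after CDC6, the smallest with OA. With a library left out it ran from -0.51 to -0.17 with OA and from -0.46 to -0.08 with TN. ORC3 had -0.96 ± 0.38 with OA (adjusted p = 0.175, edgeR) and fell by 1.23 on the log2 scale with TN (edgeR adjusted p = 0.0408).

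The CMG helicase, made of MCM2-7, CDC45, and the 4 GINS subunits, unwinds DNA ahead of the fork. All 11 genes fell with OA, with a median of -1.66 and a range of -2.58 to -1.499, and 9 of 11 fell with TN, with a median of -2.09. The 2 helicase genes not called with TN were MCM5 (log2 fold change -1.86 ± 0.45, edgeR adjusted p = 0.0503) and CDC45 (-2.04 ± 0.49, 0.0506), and both were called with the replicate block (0.000504 and 0.00111). The summed level of the group was 27.6% of DMSO with OA and 21.3% with TN.

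MCM4, a subunit of the helicase ring, was at 516, 481, and 481 CPM with DMSO and 93.7, 35.5, and 118 CPM with OA (-2.58 ± 0.42, edgeR adjusted p = 0.0242), a 5.99-fold lower level. In the TN experiment it read 544, 489.6, and 489.6 CPM with DMSO and 72.6, 55.0, and 63.1 CPM with TN (-2.997 ± 0.21, edgeR adjusted p = 0.0024), 7.99-fold lower. The DMSO libraries of MCM4 were close to each other in both experiments, and OA replicate 2 stood below the other OA libraries. The other 5 ring subunits fell less with OA on the log2 scale: MCM2 fell by 2.18, MCM7 fell by 1.71, MCM5 fell by 1.56, MCM3 fell by 1.55, and MCM6 fell by 1.53. With TN, MCM2 fell by 2.35, MCM7 by 2.17, MCM6 by 2.09, and MCM3 by 1.81 on that scale. An opposite-strand gene covers 23.6% of the exon bases of MCM2.

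The 6 ring subunits take part in the helicase in equal number, and their levels were therefore set side by side as CPM per kilobase of exon, which depends on the exon lengths of the annotation. With DMSO in the OA experiment, MCM7 was highest at 174 ± 37.9 (SD, n = 3), followed by MCM2 at 127 ± 31.96 and MCM3 at 116 ± 11.3. MCM7 was above MCM2 in each of the 3 libraries, whereas MCM2 and MCM3 changed order between libraries. MCM5 at 52.2 ± 14.2, MCM4 at 50.02 ± 2.01, and MCM6 at 47.6 ± 2.76 formed a lower set, in which MCM4 was above MCM6 in each library and MCM5 changed its place. With OA the order at the bottom changed, as MCM4 stood at 8.35 ± 4.29, below MCM5 at 17.7 ± 6.15 and MCM6 at 16.5 ± 4.54 CPM per kilobase. The ratio of MCM4 to MCM6 per kilobase was 1.04, 1.02, and 1.09 in the DMSO libraries and 0.545, 0.313, and 0.583 with OA. It was 1.06, 1.24, and 1.203 in the DMSO libraries of the TN experiment and 0.662, 0.588, and 0.601 with TN. In both experiments all treated libraries had a lower ratio of MCM4 to MCM6 than all DMSO libraries. Set against MCM2 or MCM7 instead, MCM4 gave ratios that overlapped between treated and DMSO libraries in both experiments. Set against MCM5 they overlapped with OA but not with TN, and against MCM3 in neither. The ratio to MCM6 was chosen after its values were seen, and with 3 libraries against 3 a two-sided exact permutation test cannot give a p below 0.1.

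**Figure D4:**
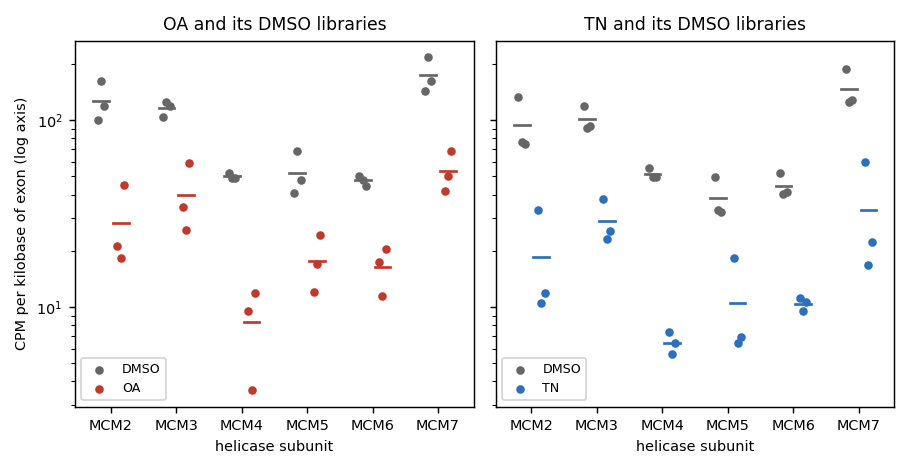
Level of the 6 helicase ring subunits in CPM per kilobase of exon (log axis) in each library of the OA experiment (left) and the TN experiment (right), with DMSO in grey, treated libraries in colour, and a line for the mean of 3 libraries. MCM4 lies beside MCM5 and MCM6 with DMSO and below them with OA, where its lowest library stands at 3.605 CPM per kilobase.

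GINS1 and GINS2, which bind the helicase together with CDC45, carry the motifs printed above. GINS1 (ENSG00000101003, chr20:25391008-25452700) was at 80.2, 74.3, and 77.5 CPM with DMSO and 17.1, 8.88, and 27.1 CPM with OA (-2.13 ± 0.39, edgeR adjusted p = 0.0303). It read 87.3, 82.4, and 78.0 CPM with DMSO and 12.6, 13.0, and 12.4 CPM with TN in the TN experiment (-2.70 ± 0.19, edgeR adjusted p = 0.0024), where the 3 TN libraries were nearly equal. GINS2 (ENSG00000131153, chr16:85676198-85690073) stood at 131, 191, and 145 CPM with DMSO and 24.3, 24.9, and 42.0 CPM with OA (-2.36 ± 0.31, edgeR adjusted p = 0.0157), and at 167, 111, and 108 CPM with DMSO and 31.1, 16.5, and 18.03 CPM with TN in the TN experiment (-2.56 ± 0.33, edgeR adjusted p = 0.00736). Both genes showed a wide gap between treated and control libraries. GINS4 read 37.8, 39.0, and 35.2 CPM with DMSO and 9.37, 14.1, and 12.03 CPM with OA (-1.66 ± 0.26, edgeR adjusted p = 0.0223) and 45.7, 30.5, and 38.6 CPM with DMSO and 15.6, 8.30, and 6.70 CPM with TN (-1.91 ± 0.36, edgeR adjusted p = 0.0242), while 23.4% of its exon bases overlap exons of other genes on the opposite strand. GINS3 fell by 1.499 with OA and by 1.74 with TN on the log2 scale.

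Origin firing was represented by MCM10 and by CDC7 and DBF4, the catalytic and regulatory subunits of the kinase that activates the loaded helicase. With OA, 1 of 3 genes fell and with TN 2 of 3, with medians of -1.804 and -1.756. MCM10, which is needed for the helicase to start unwinding, stood at 123, 118, and 123 CPM with DMSO and 21.2, 18.5, and 32.1 CPM with OA (-2.35 ± 0.28, edgeR adjusted p = 0.0149) and in the TN experiment at 122, 117, and 122 CPM with DMSO and 23.4, 11.9, and 13.995 CPM with TN (-2.87 ± 0.30, edgeR adjusted p = 0.00448). TN replicate 2 had the lowest level of MCM10, and all treated libraries were far below the controls. CDC7 read 36.9, 21.5, and 26.2 CPM with DMSO and 11.2, 3.79, and 9.13 CPM with OA (-1.804 ± 0.43, edgeR adjusted p = 0.055), with a gap between the groups but a wide spread with OA. The values of CDC7 in the TN experiment were 27.6, 32.4, and 49.0 CPM with DMSO and 8.43, 13.6, and 16.7 CPM with TN (-1.49 ± 0.34, edgeR adjusted p = 0.0426). DBF4, for which 52% of the transcript is nearly identical to the pseudogene DBF4P1, had -1.75 ± 0.63 with OA and -1.76 ± 0.52 with TN (edgeR adjusted p = 0.146 and 0.0886, the latter 0.000468 with the block).

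Among the polymerases and primase, 3 of 9 genes fell with OA (PRIM2, POLD3, and POLE2) and 6 of 9 with TN, with medians of -1.42 and -1.72. POLA1 and POLA2 belong to polymerase alpha, which together with the primase subunits PRIM1 and PRIM2 starts each new strand. POLA1 stood at 91.9, 70.0, and 88.3 CPM with DMSO and 39.3, 12.2, and 41.9 CPM with OA (-1.42 ± 0.44, edgeR adjusted p = 0.104). It read 102, 91.7, and 105 CPM with DMSO and 29.9, 31.4, and 26.2 CPM with TN in the TN experiment (-1.77 ± 0.19, edgeR adjusted p = 0.00535). The OA libraries of POLA1 were spread widely, with replicate 2 lowest, whereas the TN libraries were close to each other. POLA2 had -1.79 ± 0.43 with OA (edgeR adjusted p = 0.0563) and fell by 2.62 with TN, the largest change of this group with TN, while 21.3% of its exon bases overlap other genes. PRIM1 had -1.79 ± 0.42 with OA (adjusted p = 0.0519, edgeR) and fell by 2.21 with TN, and other genes cover 19.1% of its exon bases. PRIM2 fell by 1.502 and 1.64 on the log2 scale, but 41.8% of its transcript is nearly identical to a related copy.

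The lagging strand is copied by polymerase delta and the leading strand by polymerase epsilon. POLD3, an accessory subunit of delta, was at 25.5, 24.7, and 25.8 CPM with DMSO and 11.7, 7.98, and 9.96 CPM with OA (-1.36 ± 0.26, edgeR adjusted p = 0.0348) and at 26.1, 27.5, and 31.9 CPM with DMSO and 6.85, 8.58, and 10.4 CPM with TN in the TN experiment (-1.72 ± 0.25, edgeR adjusted p = 0.00968). POLE2 (ENSG00000100479, chr14:49643555-49688422), an accessory subunit of epsilon, read 42.7, 35.8, and 38.0 CPM with DMSO and 14.9, 8.18, and 12.2 CPM with OA (-1.72 ± 0.30, edgeR adjusted p = 0.027), and 40.1, 45.6, and 46.6 CPM with DMSO and 9.06, 9.31, and 11.1 CPM with TN in the TN experiment (-2.17 ± 0.21, edgeR adjusted p = 0.00396). For these accessory subunits the groups were well separated in both experiments. The catalytic subunits had smaller changes and passed the threshold in neither main test, though both passed in each with the GC offset. POLD1 had -0.83 ± 0.32 with OA and -1.12 ± 0.42 with TN (edgeR adjusted p = 0.174 and 0.153, the latter 0.00404 with the block). POLE had -1.01 ± 0.29 and -1.44 ± 0.37 (edgeR adjusted p = 0.0897 and 0.0619, the latter 0.00142 with the block).

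POLD2, the second subunit of delta, showed values of 191, 329, and 215 CPM with DMSO and 98.2, 278, and 146 CPM with OA (log2 fold change -0.49 ± 0.40, edgeR adjusted p = 0.493), given in full after they were seen. OA replicate 2 of POLD2 lay above 2 of the 3 DMSO libraries, and the log2 fold change ran from -1.02 to -0.19 with a library left out. In the TN experiment it had -0.91 ± 0.43 (edgeR adjusted p = 0.244, and 0.0041 with the block), and ran from -1.48 to -0.64 with a library left out. The exon GC content was 63.9% for POLD1 and 58.7% for POLD2, against 42.6% for POLD3 and a median of 46.4% over the members. With the GC offset POLD1 had -0.96 with OA and -1.32 with TN (edgeR adjusted p = 0.0194 and 0.00474), and POLE had -1.17 and -1.58 (edgeR adjusted p = 0.0112 and 0.00148). POLD2 had -0.70 and -1.09 with it (edgeR adjusted p = 0.097 and 0.0139).

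For the clamp and its loaders, 4 of 8 genes fell with OA and 6 of 8 with TN, with medians of -1.67 and -2.02. PCNA (ENSG00000132646, chr20:5114953-5126626), the ring that holds polymerases on DNA, stood at 351, 275, and 301 CPM with DMSO and 105, 35.8, and 89.9 CPM with OA (-2.00 ± 0.39, edgeR adjusted p = 0.0355), 4.01-fold lower. For TN, PCNA was at 364, 345, and 355 CPM with DMSO and 64.8, 71.6, and 77.0 CPM with TN (-2.32 ± 0.19, edgeR adjusted p = 0.0026), 4.99-fold lower. OA replicate 2 had the lowest level of PCNA, and the groups did not overlap in either experiment.

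RFC4 and RFC5 are small subunits of replication factor C, which opens the clamp and sets it on DNA. RFC4 read 105, 90.2, and 98.1 CPM with DMSO and 38.7, 42.5, and 47.9 CPM with OA (-1.18 ± 0.22, edgeR adjusted p = 0.0328), and 101, 100.4, and 101 CPM with DMSO and 35.3, 24.1, and 27.6 CPM with TN in the TN experiment (-1.795 ± 0.22, edgeR adjusted p = 0.00662). RFC5 was at 161, 181, and 154 CPM with DMSO and 40.9, 34.7, and 54.4 CPM with OA (-1.93 ± 0.26, edgeR adjusted p = 0.0157) and at 193, 167, and 169 CPM with DMSO and 49.3, 27.5, and 35.1 CPM with TN (-2.24 ± 0.27, edgeR adjusted p = 0.00635). The controls of both genes were tight, and both were lower in all treated libraries. RFC2 fell by 1.40 and 1.72 with OA and TN on the log2 scale, and RFC3 had -2.01 ± 0.53 with OA (edgeR adjusted p = 0.0698) and fell by 2.34 with TN.

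RFC1, the large subunit of replication factor C, varied widely within both treated and control libraries. It stood at 106, 33.9, and 74.1 CPM with DMSO and 59.8, 13.2, and 27.5 CPM with OA (-1.09 ± 0.58, edgeR adjusted p = 0.302) and at 58.0, 122, and 124 CPM with DMSO and 15.4, 85.8, and 74.7 CPM with TN (-0.79 ± 0.60, edgeR adjusted p = 0.474, and 0.0229 with the block), and these values were chosen after they were seen. With a library left out its log2 fold change ran from -1.82 to -0.62 with OA and from -1.17 to -0.28 with TN. DSCC1, a subunit of the alternative loader that takes part in sister chromatid cohesion, was at 82.4, 47.7, and 72.9 CPM with DMSO and 21.2, 2.49, and 21.1 CPM with OA (-2.18 ± 0.67, edgeR adjusted p = 0.103). Its TN experiment gave 72.2, 82.0, and 83.5 CPM with DMSO and 4.64, 9.96, and 11.3 CPM with TN (-3.19 ± 0.35, edgeR adjusted p = 0.00535), the largest log2 change of all members, from 1318, 1440, and 1126 counts with DMSO to 44, 108, and 132 counts with TN. CHTF18, the large subunit of the same loader, had -0.93 ± 0.33 and -0.88 ± 0.45 (edgeR adjusted p = 0.142 and 0.285, the latter 0.017 with the block). The log2 fold change of CHTF18 with TN ran from -1.54 to -0.59 with a library left out.

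Okazaki fragments are trimmed by the nucleases FEN1 and DNA2 and sealed by the ligase LIG1. FEN1 stood at 279, 324, and 295 CPM with DMSO and 63.6, 100.4, and 106 CPM with OA (-1.73 ± 0.27, edgeR adjusted p = 0.0219), and at 334, 251, and 271 CPM with DMSO and 99.2, 49.2, and 61.7 CPM with TN in the TN experiment (-2.03 ± 0.30, edgeR adjusted p = 0.0115), although 57% of its transcript is nearly identical to the pseudogene FEN1P1. LIG1 read 73.2, 98.2, and 76.5 CPM with DMSO and 21.9, 23.3, and 41.9 CPM with OA (-1.51 ± 0.32, edgeR adjusted p = 0.0411). In the TN experiment its values were 81.1, 67.1, and 63.0 CPM with DMSO and 46.5, 15.0, and 13.4 CPM with TN (-1.498 ± 0.48, edgeR adjusted p = 0.109, and 0.00397 with the block), with TN replicate 1 well above the other TN libraries but below the controls. DNA2 was at 52.2, 29.2, and 43.1 CPM with DMSO and 20.6, 21.0, and 24.1 CPM with OA (-0.92 ± 0.28, edgeR adjusted p = 0.104) and at 39.98, 46.9, and 55.5 CPM with DMSO and 28.3, 15.3, and 21.5 CPM with TN (-1.13 ± 0.28, edgeR adjusted p = 0.0549, and 0.00827 with the block). DNA2 showed a gap between treated and control libraries in each experiment, but did not pass the main threshold. With the GC offset its log2 fold change was -0.30 with OA and -0.61 with TN (edgeR adjusted p = 0.555 and 0.421).

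Fork protection was covered by CLSPN, TIMELESS, TIPIN, and WDHD1, of which CLSPN and WDHD1 fell with both stressors. CLSPN (ENSG00000092853, chr1:35720218-35769978) encodes claspin, which links the fork to the checkpoint kinase CHK1, and stood at 38.5, 27.6, and 35.1 CPM with DMSO and 7.45, 3.69, and 8.40 CPM with OA (-2.37 ± 0.36, edgeR adjusted p = 0.0219). With TN its values were 8.43, 4.33, and 9.02 CPM, against 38.0, 40.3, and 40.1 CPM with DMSO (-2.44 ± 0.31, edgeR adjusted p = 0.00695). CLSPN was lowest in OA replicate 2 and TN replicate 2, and in neither experiment did the groups overlap. WDHD1, which ties polymerase alpha to the helicase, read 112, 52.7, and 80.1 CPM with DMSO and 28.7, 11.97, and 27.3 CPM with OA (-1.85 ± 0.42, edgeR adjusted p = 0.0473) and 72.8, 106, and 111 CPM with DMSO and 14.01, 20.9, and 33.1 CPM with TN (-2.09 ± 0.36, edgeR adjusted p = 0.0169). TIMELESS had -0.83 ± 0.25 and -1.10 ± 0.32, and its partner TIPIN -1.31 ± 0.36 and -1.81 ± 0.44, with OA and TN respectively. Their edgeR adjusted p values were 0.0946 and 0.0781 with OA and 0.0841 and 0.0522 with TN, the last 2 being 0.00474 and 0.00103 with the block. A pseudogene covers 21.1% of the exon bases of TIPIN.

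All 3 genes that restore chromatin behind the fork fell with both stressors, with medians of -1.62 for OA and -2.41 for TN. CHAF1A and CHAF1B are subunits of CAF-1, which deposits histones on new DNA. CHAF1A stood at 75.0, 84.2, and 76.0 CPM with DMSO and 17.99, 13.4, and 25.5 CPM with OA (-2.05 ± 0.30, edgeR adjusted p = 0.0191) and at 76.4, 68.2, and 69.4 CPM with DMSO and 16.4, 9.41, and 12.6 CPM with TN (-2.48 ± 0.26, edgeR adjusted p = 0.00466). CHAF1B read 43.7, 58.6, and 45.7 CPM with DMSO and 16.7, 16.2, and 16.7 CPM with OA (-1.58 ± 0.25, edgeR adjusted p = 0.0219), and 56.7, 39.0, and 47.8 CPM with DMSO and 15.8, 6.92, and 8.07 CPM with TN in the TN experiment (-2.22 ± 0.36, edgeR adjusted p = 0.0142). UHRF1, which brings the maintenance methyltransferase DNMT1 to new DNA, was at 86.8, 91.9, and 86.6 CPM with DMSO and 27.1, 17.5, and 41.5 CPM with OA (-1.62 ± 0.33, edgeR adjusted p = 0.039) and at 101, 77.9, and 82.5 CPM with DMSO and 20.5, 14.6, and 14.2 CPM with TN (-2.41 ± 0.24, edgeR adjusted p = 0.00424), with 33% of its transcript nearly identical to another gene model. The summed level of these genes was 29.7% of DMSO with OA and 19.2% with TN, the lowest percentage of any group with TN.

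The enzymes of nucleotide supply fell in 4 of 4 cases with OA and in 3 of 4 with TN, with medians of -1.74 and -1.89. RRM1 and RRM2 form ribonucleotide reductase, which makes deoxyribonucleotides. RRM2 was at 395, 424, and 397 CPM with DMSO and 91.0, 85.2, and 115 CPM with OA (-2.06 ± 0.23, edgeR adjusted p = 0.0116), the member with the lowest adjusted p with OA, and at 455, 366, and 372 CPM with DMSO and 126, 55.0, and 70.7 CPM with TN (-2.24 ± 0.34, edgeR adjusted p = 0.0114). RRM1 read 286, 265, and 255 CPM with DMSO and 88.3, 54.3, and 113 CPM with OA (-1.66 ± 0.30, edgeR adjusted p = 0.0296) and 337, 247, and 281 CPM with DMSO and 119.6, 68.4, and 73.4 CPM with TN (-1.73 ± 0.28, edgeR adjusted p = 0.0142). Both subunits were well below their controls in all treated libraries, and TN replicate 1 stood above the other TN libraries.

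TYMS (ENSG00000176890, chr18:657653-673578), thymidylate synthase, stood at 66.5, 68.2, and 71.0 CPM with DMSO and 14.8, 20.3, and 23.4 CPM with OA (-1.82 ± 0.26, edgeR adjusted p = 0.0189) and at 69.6, 51.6, and 54.8 CPM with DMSO and 21.8, 10.6, and 9.87 CPM with TN (-2.06 ± 0.35, edgeR adjusted p = 0.0173). Of its exon bases, 47.9% overlap exons of other genes on the opposite strand, and the strand setting of the counting is not stated. TK1, the thymidine kinase of the salvage pathway, fell by 1.43 with OA (edgeR adjusted p = 0.0498). With TN it read 226, 54.03, and 54.9 CPM, against 367, 248, and 246 CPM with DMSO (-1.36 ± 0.57, edgeR adjusted p = 0.198, and 0.0048 with the block), and replicate 1 was the highest in each group. The log2 fold change of TK1 with TN ran from -2.36 to -1.04 with a library left out.

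Of the activators E2F1 and E2F2, 1 of 2 was called in each comparison. E2F1 stood at 35.1, 45.2, and 42.5 CPM with DMSO and 12.6, 12.9, and 28.4 CPM with OA (-1.19 ± 0.37, edgeR adjusted p = 0.103) and at 39.1, 29.0, and 24.4 CPM with DMSO and 17.7, 7.84, and 7.04 CPM with TN (-1.51 ± 0.40, edgeR adjusted p = 0.0673, and 0.00142 with the block). E2F2 fell in both experiments, from 28.4, 35.6, and 30.4 to 6.42, 6.29, and 14.2 CPM with OA (-1.81 ± 0.37, edgeR adjusted p = 0.0393) and from 35.2, 25.1, and 24.0 to 10.3, 3.78, and 3.95 CPM with TN (-2.23 ± 0.44, edgeR adjusted p = 0.0272). No treated library of either gene reached the level of a control library. The 22 members with an E2F motif in the promoter window had a median log2 fold change of -1.67 with OA and -2.13 with TN, where 14 and 18 of them were called. The 26 members with a window but no match had medians of -1.62 and -1.8, with 16 called in each comparison, and the difference between these sets was not tested.

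The change with OA and the change with TN, measured against separate DMSO libraries, ran in parallel over the members. Pearson's r of the log2 fold changes was 0.908 over the 54 genes and 0.804 over the 14071 genes tested in both, genes that share libraries and are not independent replicates. A total of 30 members fell in both comparisons, 4 with OA alone (MCM5, CDC45, LIG1, and TK1), 8 with TN alone (ORC3, CDC6, CDC7, POLA1, POLA2, PRIM1, RFC3, and DSCC1), and 12 in neither. Over all genes tested, 1.72% fell with OA and 3.34% with TN, and the share that fell in both was not counted. With the replicate block in both comparisons 51 members were called in both, where 15% of all genes fell with OA and 15.3% with TN. The lists for OA alone, TN alone, and neither follow from the threshold and do not show that the stressors differed. The difference itself was tested in a joint fit of all 12 libraries, in which the change with OA minus that with TN was called in 0 of 54 members and in 0% of 15429 genes (edgeR), with 0 members and 348 genes at an unadjusted p under 0.05, and in 0 members and 2 genes by DESeq2. The difference had a median of 0.27 over the members, from -0.38 to 0.96, and was positive in 45, meaning a smaller fall with OA. RFC4 had the lowest p, with a difference of 0.55 ± 0.25 (unadjusted p = 0.0518 in edgeR's quasi-likelihood test). The standard error of the difference in this fit, which had no block or GC offset, had a median of 0.465 over the members. That is larger than the median difference of 0.27, and the power to detect such a difference was not tested. Without TN replicate 1, 13 members and 713 genes had an unadjusted p under 0.05 in edgeR, with a median difference of 0.64 over the members. Without OA replicate 2 these were 11 members and 573 genes, with a median of 0.42. No member was called in either fit.

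**Figure D5:**
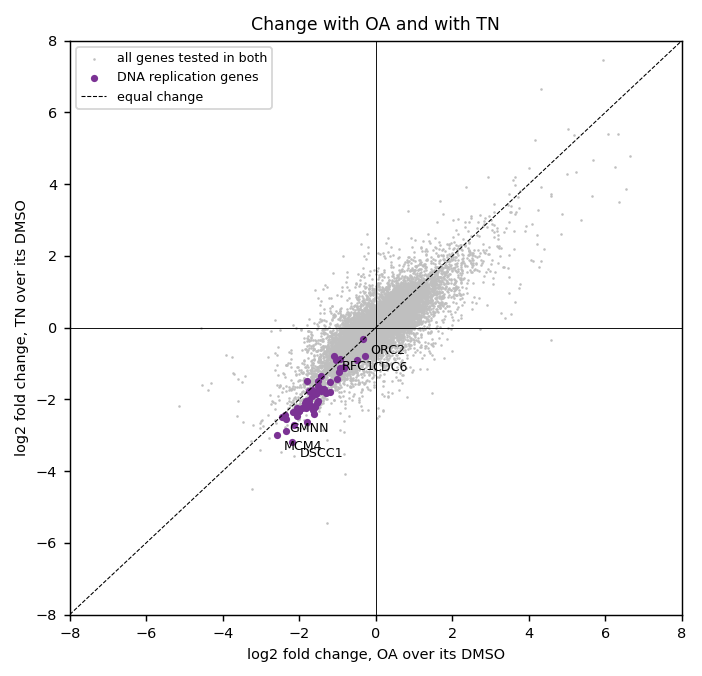
Log2 fold change with TN against that with OA, each over its own DMSO libraries, for 14071 genes tested in both (grey) and the 54 replication genes (purple), with a dashed line for equal change. The replication genes lie in the lower left, from ORC2 near 0 to MCM4 and DSCC1, and 47 of 54 fall below the line.

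Further genes of the same pathways were examined from lists of 29 other replication genes, 7 other genes of nucleotide supply, and 27 genes of G1/S control. Over all genes tested, 1.72% fell and 2.76% rose with OA, 3.34% fell and 3.65% rose with TN, and 15.3% fell and 11.8% rose with TN under the replicate block. Of the 29 other replication genes, 6 fell and 1 rose with OA, with a median of -1.09, and 11 fell and 1 rose of 28 tested with TN, with a median of -1.18; with the replicate block 22 of 28 fell with TN. As for the members, the falls called with OA in these lists were lost when any of the 3 DMSO libraries was left out. The genes with the lowest p with OA were the histone chaperone ASF1B (-1.85 ± 0.29, edgeR adjusted p = 0.0219), POLD4 (2.05 ± 0.38, edgeR adjusted p = 0.0309), and RPA3, a subunit of the single-strand binding protein (-1.31 ± 0.26, edgeR adjusted p = 0.0352). With TN they were the PCNA partner PCLAF (-2.54 ± 0.26, edgeR adjusted p = 0.00448), the MCM-binding protein MCMBP (-1.39 ± 0.20, edgeR adjusted p = 0.00961), and the FACT subunit SUPT16H (-1.26 ± 0.18, edgeR adjusted p = 0.00992). POLD4, the smallest subunit of polymerase delta, moved against the other subunits and rose from 1.68, 1.90, and 1.12 to 6.34, 8.28, and 4.98 CPM with OA. POLD4 also rose with TN, from 0.657, 1.48, and 1.04 to 8.11, 4.24, and 4.55 CPM (2.40 ± 0.45, edgeR adjusted p = 0.0236). Of the 6 fits per stressor that left out a library, POLD4 was called in 2 with OA and in 1 with TN.

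In the list of other nucleotide genes, 1 of 7 fell with OA and 2 of 7 with TN, or 5 of 7 with TN under the replicate block, where 1 rose. DUT, which removes dUTP, fell by 1.56 with OA and 1.76 with TN. DTYMK, thymidylate kinase, had -0.87 ± 0.34 with OA (edgeR adjusted p = 0.177), and DCK had -1.65 ± 0.46 with TN (edgeR adjusted p = 0.0767). RRM2B, the p53-dependent small subunit of ribonucleotide reductase, had -0.31 ± 0.73 with OA (edgeR adjusted p = 0.825) and 0.10 ± 0.56 with TN (edgeR adjusted p = 0.935). Its sign changed with a library left out, from -1.45 to 0.36 with OA and from -0.26 to 0.60 with TN. With the replicate block it was -0.12 with TN.

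Of the 27 genes of G1/S control, 8 fell and 2 rose with OA, and 12 fell and 1 rose with TN, or 15 and 2 with TN under the replicate block. CCNE2, a cyclin that activates CDK2, fell from 58.0, 18.1, and 43.1 to 7.01, 2.59, and 4.98 CPM with OA (-3.02 ± 0.53, edgeR adjusted p = 0.0271). It also fell with TN (-2.80 ± 0.39, edgeR adjusted p = 0.00906). CDC25A, the phosphatase that activates CDK2, fell with OA (-1.98 ± 0.31, edgeR adjusted p = 0.0219) and with TN (-2.80 ± 0.26, edgeR adjusted p = 0.00363). CDK2 itself fell by 1.45 on the log2 scale with OA and by 1.61 with TN. With TN, CCNA2 (-2.44 ± 0.23, edgeR adjusted p = 0.00332) and the repressor E2F7 (-2.41 ± 0.24, edgeR adjusted p = 0.00404) were among the 3 genes of lowest p. CCNE1 had -1.07 ± 0.25 with OA (edgeR adjusted p = 0.0512) and -1.68 ± 0.24 with TN (edgeR adjusted p = 0.00968), and CCND1, which acts earlier in G1, had -0.38 ± 0.37 with OA (edgeR adjusted p = 0.571) and -0.31 ± 0.17 with TN (edgeR adjusted p = 0.331). CCND1 ran from -0.63 to -0.04 with OA and from -0.36 to -0.20 with TN when a library was left out.

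Inhibitors of cyclin-dependent kinases in this list did not move together. CDKN1A, which encodes p21, rose from 104, 136, and 128 to 284, 869, and 367 CPM with OA (2.05 ± 0.42, edgeR adjusted p = 0.0396). For TN, CDKN1A was at 151, 115, and 107 CPM with DMSO and 448, 216, and 210.4 CPM with TN (1.23 ± 0.34, edgeR adjusted p = 0.0747, and 0.00247 with the block). CDKN2B, which encodes p15, rose with OA (2.65 ± 0.48, edgeR adjusted p = 0.0297) and with TN (1.61 ± 0.29, edgeR adjusted p = 0.0211). Of the 6 fits per stressor that left out a library, CDKN2B was called in 3 with OA and in 1 with TN. CDKN1A was called in 2 of them with OA and in 1 with TN. CDKN2C, which encodes p18 and was named after its values were seen, had -2.04 ± 0.50 with OA (edgeR adjusted p = 0.0585) and fell by 1.48 on the log2 scale with TN (edgeR adjusted p = 0.0357). CDKN1B, CDKN1C, and CDKN2D were called in neither comparison.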

How the data were processed

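RNA-seq of HCT116 cells was analysed from 2 gene count matrices with 6 libraries each. The authors aligned reads to hg38 with STAR and deposited raw counts per gene from its gene counting; which strand column was kept is not stated. The authors' own DESeq2 comparisons (fold changes and p-values), deposited beside the counts, were not used. Members and gene lists were chosen with earlier results of these data known.

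Each stressor was compared with its own 3 DMSO libraries in edgeR 4.0.16 (R 4.3.3): filterByExpr, TMM scaling, quasi-likelihood test, Benjamini-Hochberg adjustment over all genes tested, threshold 0.05. A joint fit of 12 libraries tested the OA change minus the TN change. CPM values use TMM-scaled library sizes. The fit was tested on simulated counts with a fixed dispersion and no replicate or GC differences, so that test does not cover such differences. Labels call replicates biological. No 2 replicates agreed within sampling noise (lowest chi-square per gene 6.253). In the TN experiment numbers 2 and 3 were much closer to each other (6.253 for TN, 7.344 for DMSO) than either was to number 1 (71.04 to 111.1). The 3 replicates there were thus not equally far apart. Deviations of same-numbered TN and DMSO libraries correlated across genes (r = 0.639, 0.409, and 0.427) and their numbers were taken as pairs; this comes from the data, not the labels. Numbers 2 and 3 were not separated from each other (TN 2 with DMSO 3, r = 0.436; TN 3 with DMSO 2, r = 0.378). Alternatives covered scaling, filters, GC offset, replicate block, DESeq2 1.42.0, a shared dispersion, and leaving out each library.

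Values in every library were given for the 2 members of lowest p per role and comparison. Some members outside this rule, among them TK1 with TN, were also given in every library. In other lists the 3 genes of lowest p and preset genes were named. A gene of the nucleotide supply list that this rule names is not reported here. Overlaps and near-identical copies came from Gencode 44 annotation and transcripts, and promoters from RefSeq. Counting error limits the lowest members most.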

Additional observations from a re-analysis of the deposited data

How the results depend on the processing

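Every member tested was lower than DMSO under each alternative run for TN (54, or 53 with at least 10 counts in every library) and for OA, except that ORC2 with OA reversed to 0.0139 with the GC offset and 0.0261 with the replicate block plus GC offset; the cause was not tested. Members called with OA, 34 in the main test, ranged from 0 to 39 with a library left out and from 30 to 51 otherwise; with TN, 38 in the main test, they ranged from 21 to 52 and from 36 to 53. With a library left out, 0% to 2.88% of all genes were called lower with OA and 0.484% to 8.54% with TN. The median change over members ranged from -1.84 to -1.50 with OA and from -2.17 to -1.83 with TN when a library was left out, and that of the difference between stressors from 0.12 to 0.64.

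The replicate block moved the members called from 38 to 53 with TN and from 34 to 51 with OA. Of all genes, 15.3% were called lower with TN and 15% with OA under the block, against 3.34% and 1.72% in the main tests. The OA numbers were not taken as pairs, since same-numbered deviations correlated at 0.625, 0.539, and 0.0908. Over all genes, calls with OA went from 658 to 3914 with the block, 2361 with the GC offset, 3768 with both, 1927 with DESeq2, 1572 with no filter, and 1681 in a fit of all 12 libraries; calls with TN went from 1009 to 3915, 3137, 5366, 2162, 1648, and 1347. Scaling to total counts shifted the median of all genes to -0.23 with OA and -0.18 with TN, and lower calls from 253 of 658 to 395 of 747 and from 482 of 1009 to 875 of 1404. Upper-quartile scaling shifted it to 0.08 and 0.10, and lower calls to 184 of 661 and 340 of 990. Members were called 31 and 43 times under the former, 30 and 36 under the latter. For the difference between stressors, no member was called under any alternative.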

Other observations

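Genes of G2 and mitosis, which peak after S phase, were lower as well. All 12 genes of a list for this phase had a lower mean with both stressors; 3 fell with OA (CCNB1, BIRC5, and AURKA) and 5 with TN in edgeR, or 12 of 12 with TN under the replicate block. Over all genes tested, 1.72% fell with OA, 3.34% with TN, and 15.3% with TN under the block. The 3 calls with OA were lost when any of the 3 DMSO libraries was left out, and CCNB1 was not called with OA under the GC offset (edgeR adjusted p = 0.127). The median log2 fold change was -1.33 with OA and -1.59 with TN, compared with -1.64 and -1.97 for the replication genes. BUB1, a mitotic checkpoint kinase, fell by 2.17 on the log2 scale with TN, and CDK1 fell by 2.13. MKI67, the gene of the proliferation antigen Ki-67, had a log2 fold change of -1.42 with OA (edgeR adjusted p = 0.0649) and -1.86 with TN (edgeR adjusted p = 0.00812).

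All 6 genes listed as a check of the stress response rose with both stressors, among them DDIT3, with log2 fold changes of 5.23 with OA and 4.33 with TN. HSPA5, the chaperone BiP of the endoplasmic reticulum, rose by 2.90 with TN. CDH1, the epithelial cadherin, rose by 1.81 with OA and 1.69 with TN. With OA, the calls of these 7 genes held in 2 or 3 of the 6 fits that left out a library. The fibroblast collagen COL1A1 had a log2 fold change of 2.02 with OA (edgeR adjusted p = 0.0723).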
